A study of Rattus norvegicus with 36 samples.

Results

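Among the genes that TGFb raised in rat lung slices, 120 stayed above a difference of -0.5 log2 units from TGFb alone when Pirf or Sora was added. These genes are described here across all 36 libraries. They were chosen from the authors' deposited table of log2 CPM values (a depth-scaled level on a log2 scale), which lists 14984 genes, by the means of 6 libraries per group. A member had a mean at least 1 log2 unit higher with TGFb alone than in untreated slices at 72, a difference above -0.5 between each of TGFb+Pirf and TGFb+Sora and TGFb alone, and a mean of at least 1 log2 CPM in its highest group. Of 367 genes that met the first and last conditions, 135 lay at or below -0.5 with both drugs, 45 with Pirf only and 67 with Sora only, and the remaining 120 are the members. These 3 differences chose the members, so they are given as a description, and nothing is read from their direction.

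The slices were living sections of rat lung kept in culture, and total RNA was sequenced after removal of ribosomal RNA. The 6 groups of 6 libraries were untreated slices at time 0, untreated slices at 72, and slices at 72 with TGFb alone, TGFb and Pirf, TGFb and Nint, or TGFb and Sora. The labels give no unit for the time, no dose and no strain, age or sex, and no group holds a drug without TGFb. Pirf, Nint and Sora are read as pirfenidone, nintedanib and sorafenib. Whether the libraries of a group stem from different animals is not in the labels. The p-values therefore reflect spread between libraries that could be technical replicates.

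TGFb is a secreted growth factor that binds serine/threonine kinase receptors and activates SMAD transcription factors. In lung it drives fibroblasts towards contractile, collagen-producing myofibroblasts, and it is a central signal of pulmonary fibrosis. Pirfenidone and nintedanib are medicines for idiopathic pulmonary fibrosis. Nintedanib blocks the PDGF, FGF and VEGF receptor tyrosine kinases, sorafenib blocks RAF kinases and several of the same receptors, and the direct target of pirfenidone is not settled.

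The files identify genes by Ensembl ID alone, and 0 of the 120 members could be paired with a gene name in the reference table at hand. The roles of the members, lung cell type markers and pathway lists are therefore not given, and members are named by ID. In slices, a lower level from fewer cells of a type and a lower level from less RNA per cell cannot be told apart.

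Total counts per library lay between 15886958 and 32933012. The members held a mean of 0.308% of all counts at time 0, 0.272% in untreated slices at 72, 0.711% with TGFb alone, 0.776% with TGFb+Pirf, 0.716% with TGFb+Nint and 0.684% with TGFb+Sora. Library 3 at time 0 stood apart: the members held 0.475% of its counts against at most 0.31% in the other 5, and 61 of the 120 members had their highest time-0 value in it. Calls and counts against time 0 are given with and without it.

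Averaged over the 120 members, log2 CPM ran from 2.09 to 3.06 at time 0, with a median of 2.46. It ran from 1.67 to 2.38 in untreated slices at 72, with a median of 2.03. With TGFb alone it ran from 3.19 to 3.92, with a median of 3.47. Every library with TGFb alone thus lay above every untreated library. Against untreated slices at 72 this follows from the choice of the members. The time-0 libraries did not enter the TGFb difference, but the libraries with TGFb alone did, and it favours members high in them. The separation from time 0, 3.06 at most against 3.19 at least, is therefore a description. With TGFb+Pirf the mean ran from 3.37 to 3.95 with a median of 3.74, with TGFb+Nint from 3.07 to 3.57 with a median of 3.44, and with TGFb+Sora from 3.18 to 3.70 with a median of 3.58. The libraries of all 3 drug groups overlapped those with TGFb alone. The mean over all 14984 genes stayed between 3.54 and 3.70 in the 36 libraries.

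**Figure D1:**
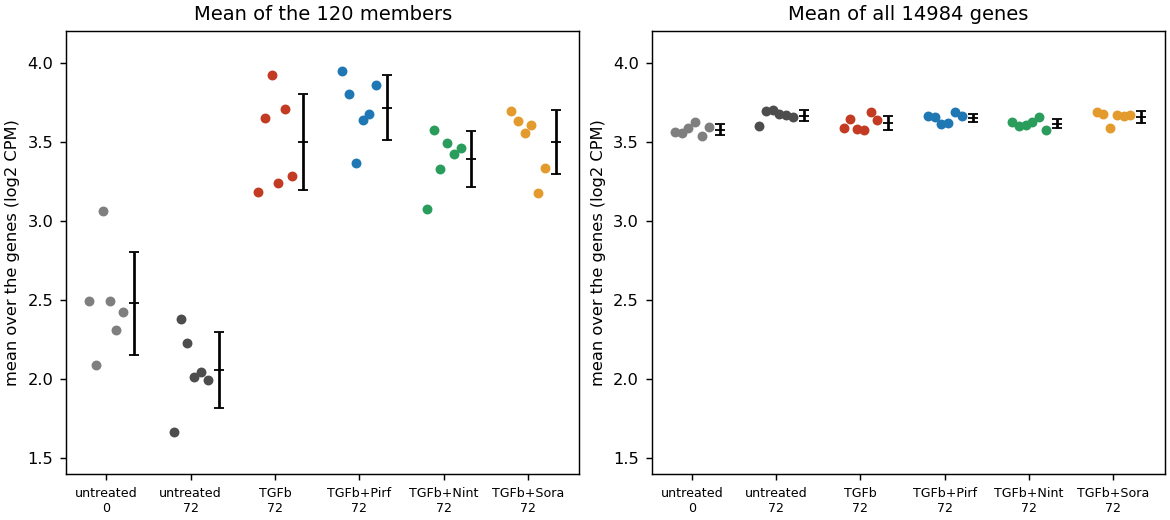
Mean log2 CPM per library over the 120 members (left) and over all 14984 genes (right), by group; points are libraries in replicate order and bars are the mean ± SD of 6. The members' means lie between 1.67 and 3.06 in untreated libraries and between 3.07 and 3.95 in libraries with TGFb, whereas the means of all genes stay between 3.54 and 3.70.

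The members' TGFb difference had a median of 1.29 log2 units and ranged from 1.004 to 3.24. It was below 1.5 in 82 members, between 1.5 and 2 in 23, between 2 and 3 in 13 and above 3 in 2. In an edgeR quasi-likelihood fit with Benjamini-Hochberg adjustment over all genes tested, which was used for every call and adjusted p below, 108 members were called higher with TGFb at an adjusted p under 0.05, where 14.0% of all genes were. In 91 of 120 members the lowest library with TGFb exceeded the highest untreated library at 72, which held for 6.6% of all genes. Of the 12 members that were not called, 7 were among the 11 that had a count of 0 in an untreated or TGFb-alone library at 72. At such counts the log2 CPM scale makes large steps, and in the fit the TGFb difference of the members fell as low as 0.17 log2 units.

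ENSRNOG00000003172 and ENSRNOG00000023148 had the largest TGFb differences. ENSRNOG00000003172 had log2 CPM of 2.70 to 4.25 in untreated slices at 72 (median 3.34) and 6.001 to 7.11 with TGFb alone (median 6.50). Its 6 libraries with TGFb lay above all 6 untreated ones, and it kept 5.61 to 6.44 with TGFb+Pirf (median 6.22), 5.78 to 6.84 with TGFb+Nint (median 6.49) and 5.81 to 6.40 with TGFb+Sora (median 6.13). At time 0 it ran from -0.79 to 4.28 (median 0.39), with the highest value in library 3. ENSRNOG00000023148 was a low gene, at -6.60 to -0.95 in untreated slices at 72 (median -2.14) and -0.67 to 1.97 with TGFb alone (median 0.41). Its untreated value of -6.60 stands for a count of 0. It had 0.86 to 1.80 with TGFb+Pirf (median 1.48), -1.20 to 0.66 with TGFb+Nint (median 0.21) and -1.18 to 1.11 with TGFb+Sora (median 0.43), all overlapping TGFb alone. Only its mean with TGFb+Pirf, 1.41, reached the required 1 log2 CPM, so the rule favoured a high mean in that group.

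The members spanned low to very high levels. Their mean with TGFb alone was below 1 log2 CPM in 23 members, 1 to 3 in 22, 3 to 5 in 38, 5 to 8 in 33 and 8 or more in 4. ENSRNOG00000014288 had the highest level with TGFb alone, 11.24 to 11.89 (median 11.49), against 9.66 to 9.94 in untreated slices at 72 (median 9.86). It stayed at 10.96 to 11.47 with TGFb+Pirf (median 11.34), 11.32 to 11.79 with TGFb+Nint (median 11.69) and 11.12 to 11.60 with TGFb+Sora (median 11.41). At time 0 it was lower still, at 7.44 to 9.85 (median 7.94), with library 3 the highest.

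ENSRNOG00000010233, the next highest, showed a small spread. It ran from 7.53 to 7.96 at time 0 (median 7.59) and from 7.67 to 7.84 in untreated slices at 72 (median 7.75). With TGFb alone it ran from 8.59 to 8.95 (median 8.85), with TGFb+Pirf from 8.64 to 8.95 (median 8.75) and with TGFb+Nint from 8.73 to 8.97 (median 8.91). These 3 groups overlapped. With TGFb+Sora it ran from 8.34 to 8.73 (median 8.58), which overlapped TGFb alone and lay above all untreated libraries.

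**Figure D2:**
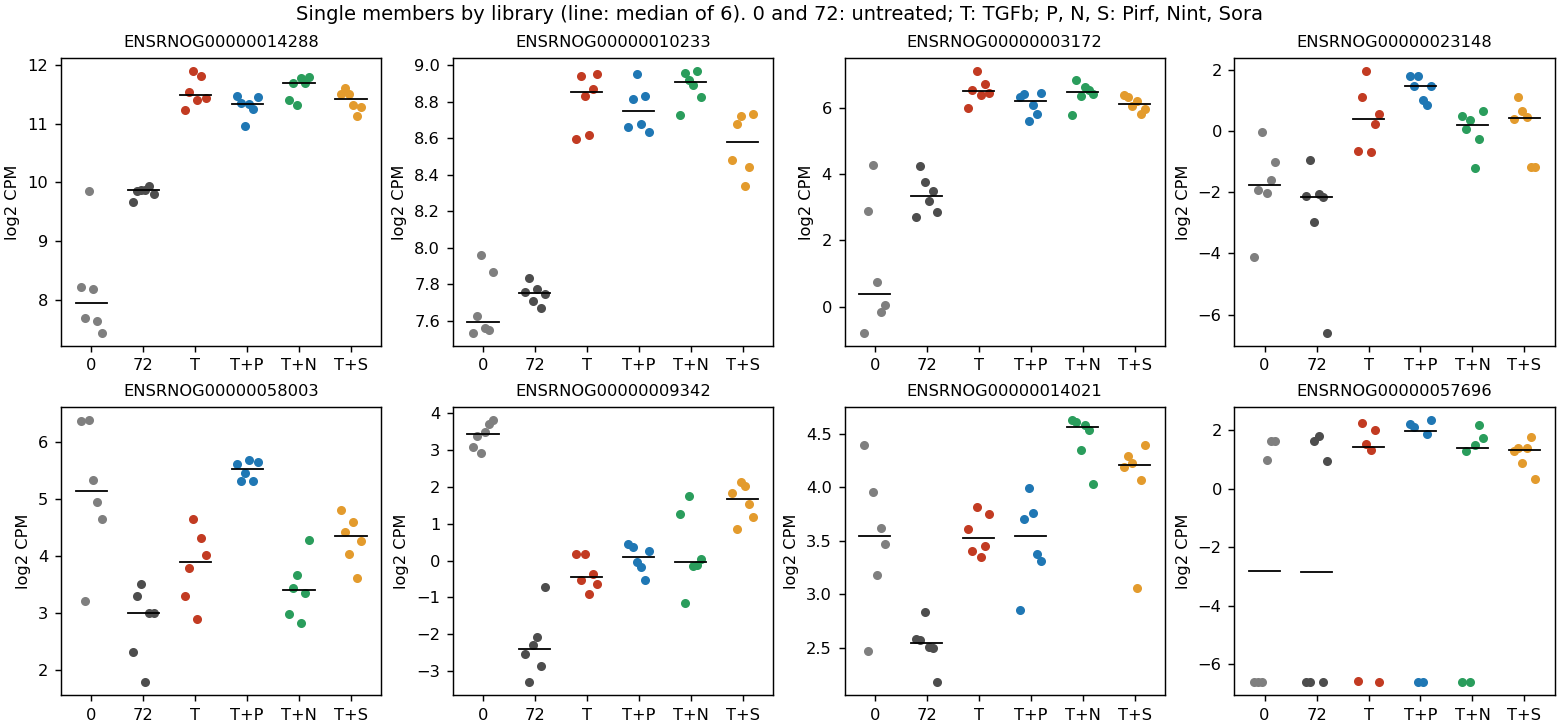
Log2 CPM of 8 members by library; each point is a library and each line the median of 6 (0 and 72, untreated slices; T, TGFb; P, N and S, Pirf, Nint and Sora). ENSRNOG00000014288, ENSRNOG00000010233 and ENSRNOG00000003172 stay near their TGFb level with all 3 drugs, ENSRNOG00000058003 has its highest median at 72 with Pirf, ENSRNOG00000009342 with Sora and ENSRNOG00000014021 with Nint, and ENSRNOG00000057696 is either at a count of 0 or at 0.34 to 2.33.

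With TGFb+Pirf the members differed from TGFb alone by a median of 0.11 log2 units, and with TGFb+Sora by -0.16, against 0.02 for each drug over all genes. With Pirf, 52 members lay between -0.5 and 0, 38 between 0 and 0.5, 16 between 0.5 and 1, and 14 above 1. With Sora, 78 lay between -0.5 and 0, 31 between 0 and 0.5, 7 between 0.5 and 1, and 4 above 1. The differences are relative to the TMM (trimmed mean of M values) scaling of the deposited table. Without scaling factors the median of all genes tested moved to 0.15 for Pirf and 0.11 for Sora, so the sign of a difference near 0 depends on the scaling.

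In the fit, 22 members were called higher with Pirf, where 25.1% of all genes were, and 9 were called lower, where 26.4% were. With Sora 2 were called higher, where 7.01% of all genes were, and 9 lower, where 8.37% were. The description as lowered by neither drug holds by the size of the difference, not by the test: 15 members, or 12.5%, were called lower with at least 1 of the drugs, and 3 of these with both. Those 3 had log2 fold changes of -0.43 to -0.33 with Pirf and -0.50 to -0.22 with Sora. No member called higher with one drug was called in either direction with the other, and 81 members were called with neither. The shares of all genes were not counted for these combined calls. The rule limits how far a member can fall with either drug, so the combined counts are a description.

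**Figure D3:**
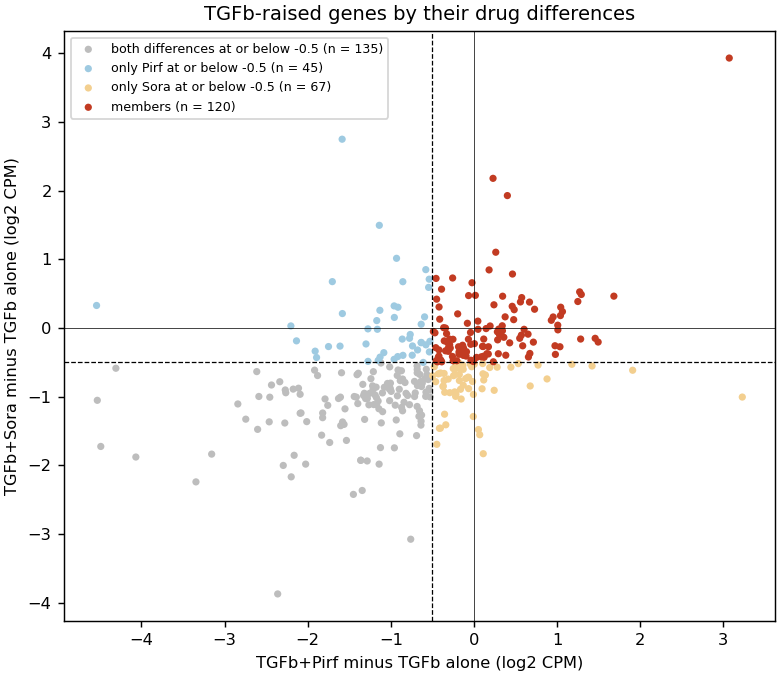
Difference from TGFb alone with Pirf (x axis) and with Sora (y axis), in log2 CPM, for the 367 TGFb-raised genes; each point is a gene and dashed lines mark -0.5. The 120 members fill the upper right corner by definition, 12 of them within 0.1 of the Pirf line and 19 within 0.1 of the Sora line, and 1 member, ENSRNOG00000050024, lies far from the rest at 3.07 and 3.93.

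ENSRNOG00000058003 and ENSRNOG00000050024 had the largest Pirf differences. ENSRNOG00000058003 had 1.79 to 3.51 log2 CPM in untreated slices at 72 (median 2.998), 2.88 to 4.65 with TGFb alone (median 3.90) and 5.31 to 5.69 with TGFb+Pirf (median 5.53). Its 6 Pirf libraries lay above all other libraries at 72 and within its range at time 0, 3.21 to 6.38 (median 5.13). With TGFb+Nint it ran from 2.82 to 4.28 (median 3.40) and with TGFb+Sora from 3.62 to 4.80 (median 4.34), both overlapping TGFb alone.

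ENSRNOG00000050024 also had the largest Sora difference. It was listed at -6.60, a count of 0, in 5 of 6 time-0 libraries, and its highest was -2.63 there. It ran from -6.60 to -1.20 in untreated slices at 72 (median -4.52) and from -6.60 to 1.72 with TGFb alone (median -1.02). With TGFb+Pirf it ran from 0.67 to 2.41 (median 1.90) and with TGFb+Sora from 1.89 to 3.002 (median 2.66), and neither group had a library at 0. The Sora libraries all lay above those with TGFb alone, and the Pirf libraries overlapped them. The group mean of ENSRNOG00000050024 reached the required 1 log2 CPM only with TGFb+Pirf (1.69) and TGFb+Sora (2.56). The rule thus favoured high values in these groups, and their differences from TGFb alone are a description. Summed over 6 libraries its counts were 3 at time 0, 21 in untreated slices at 72, 191 with TGFb alone, 563 with TGFb+Pirf, 185 with TGFb+Nint and 1069 with TGFb+Sora.

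ENSRNOG00000009342, named after its values were seen, was with ENSRNOG00000050024 one of the 2 members called higher with Sora. It ran from 2.90 to 3.80 at time 0 (median 3.42) and from -3.28 to -0.71 in untreated slices at 72 (median -2.40). It reached -0.91 to 0.18 with TGFb alone (median -0.45), -0.52 to 0.46 with TGFb+Pirf (median 0.10), -1.16 to 1.74 with TGFb+Nint (median -0.04) and 0.86 to 2.12 with TGFb+Sora (median 1.67). All Sora libraries lay above those with TGFb alone, and all libraries at 72 lay below those at time 0.

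ENSRNOG00000057696, with the second largest Sora difference, had libraries at 0 in most groups. Its rounded count was 0 in 3 of 6 libraries at time 0, 3 in untreated slices at 72, 2 each with TGFb alone, TGFb+Pirf and TGFb+Nint, and in 0 of 6 with TGFb+Sora. In the other libraries it had 32 to 144 counts, or 0.34 to 2.33 log2 CPM. These ran from 0.97 to 1.61 log2 CPM at time 0, 1.33 to 2.22 with TGFb alone, 1.85 to 2.33 with TGFb+Pirf and 0.34 to 1.75 with TGFb+Sora, so the levels above 0 were not the same in all groups. The fit gave log2 fold changes of 0.75 ± 1.10 (SE) for TGFb and -0.03 ± 1.07 for Sora. Its differences in group means, 1.56 for TGFb and 2.18 for Sora, thus exceeded those of the fit. Only its mean with TGFb+Sora, 1.17, reached the required 1 log2 CPM, so the rule favoured a high mean in that group.

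The Nint libraries took no part in the differences that chose the members. The comparison of TGFb+Nint with TGFb alone still shares the TGFb-alone libraries with the rule. The TGFb condition favours members high in these libraries, and so a lower value with Nint. The Pirf and Sora conditions favour members low in them. Which of these weighs more was not tested, so a lower value with Nint may follow from the choice. Only 2 of 120 members were called in the comparison of TGFb+Nint with TGFb alone. Of these members 1 was higher, where 0.882% of all genes were, and 1 was lower, where 2.21% were, so the members' share of calls was near that of all genes. At an unadjusted p under 0.05 the fit gave 8 members higher and 16 lower, or 6.67% and 13.3%, beside 4.97% and 8.33% of all genes. The median difference in group means was -0.14 log2 units, with 85 members below 0 and 35 above, against 0.01 over all genes. It was below -0.5 in 12 members and above 0.5 in 9.

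ENSRNOG00000014021 was the member called higher with Nint, and it was named after its values were seen. It ran from 3.35 to 3.82 log2 CPM with TGFb alone (median 3.53) and from 4.03 to 4.63 with TGFb+Nint (median 4.56), without overlap. The log2 fold change was 0.88 ± 0.21 (SE; n = 6 and 6; edgeR adjusted p = 0.014), and it kept its call when any of the 12 libraries was left out (adjusted p up to 0.0439). In untreated slices it ran from 2.18 to 2.83 at 72 (median 2.54) and from 2.47 to 4.40 at time 0 (median 3.54), with TGFb+Pirf from 2.85 to 3.995 (median 3.54) and with TGFb+Sora from 3.06 to 4.39 (median 4.21).

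ENSRNOG00000007256 had the largest fold change of the fit between Nint and TGFb alone but was not called. It ran from 0.42 to 1.12 with TGFb alone (median 0.56) and from 1.46 to 1.99 with TGFb+Nint (median 1.81), again without overlap. Its log2 fold change was 1.07 ± 0.33 (SE; edgeR adjusted p = 0.0695). Its group mean reached the required 1 log2 CPM only in groups with a drug, so the rule favoured a high mean there. It ran from -1.49 to 0.04 in untreated slices at 72 (median -0.83), and TGFb+Pirf and TGFb+Sora, at 0.02 to 1.94 (median 0.89) and 0.22 to 2.05 (median 1.13), overlapped both groups.

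ENSRNOG00000005700 was the member called lower with Nint, also named after its values were seen. It ran from 2.81 to 3.42 in untreated slices at 72 (median 3.14), from 3.76 to 4.78 with TGFb alone (median 4.22) and from 2.87 to 3.97 with TGFb+Nint (median 3.80), so the Nint libraries overlapped both. The log2 fold change was -0.72 ± 0.20 (SE; edgeR adjusted p = 0.0445). This call was lost when TGFb-alone library 2, 3 or 5 or Nint library 1, 3, 4 or 5 was left out, with an adjusted p up to 0.158. With TGFb+Pirf the same gene ran from 5.11 to 5.58 (median 5.28), above every library with TGFb alone, and with TGFb+Sora from 3.63 to 4.94 (median 4.43).

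ENSRNOG00000010617 had the lowest fold change of the fit between Nint and TGFb alone, -0.93 ± 0.43 (SE; edgeR adjusted p = 0.318), and was not called. It ran from -2.32 to 0.18 with TGFb alone (median -1.29) and from -2.77 to -1.10 with TGFb+Nint (median -1.65), on sums of 79 and 40 counts over 6 libraries.

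The other sets of TGFb-raised genes are set beside the members as a description. The median Nint difference was -0.36 log2 units in the 135 genes at or below -0.5 with both drugs, of which 12, or 8.89%, were called lower with Nint. It was -0.33 in the 67 genes lowered by Sora only, of which 4, or 5.97%, were called lower. In the 45 lowered by Pirf only it was 0.05, and 1, or 2.22%, was called lower. The members' median of -0.14 lay between these medians, and 1 of the 120 members, or 0.833%, was called lower. Over all genes 2.21% were called lower. All 4 sets share the TGFb-alone libraries with this comparison, and the difference between them was not tested.

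**Figure D4:**
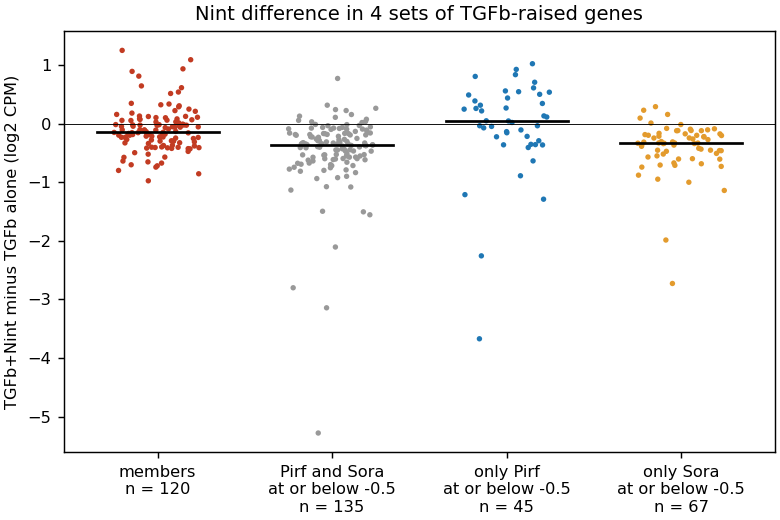
Difference between TGFb+Nint and TGFb alone, in log2 CPM, in 4 sets of TGFb-raised genes; each point is a gene, spread sideways at random, and each line the median. The members have a median of -0.14, between the Pirf-only set at 0.05 and the sets lowered by Sora only and by both, at -0.33 and -0.36.

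Against untreated slices at 72, TGFb+Nint was higher in 98 of 120 members, where 12.6% of all genes were called, and lower in 0, where 13.9% were. The count lower was also 0 at an unadjusted p under 0.05, with DESeq2 and with limma. In 74 members the 6 Nint libraries lay above all 6 untreated ones, which held for 7.73% of all genes. The median difference was 1.26 log2 units. The untreated libraries at 72 also enter the rule, in the sense that favours a higher value with Nint. As a description, ENSRNOG00000010233 was higher by 1.13 ± 0.08 log2 units (SE) and ENSRNOG00000003172 by 2.99 ± 0.45. ENSRNOG00000003172 was named for its large TGFb difference, which also favours low values in these untreated libraries.

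Between time 0 and 72 without treatment, 47 of 120 members were called lower, where 35.3% of all genes were, and 29 were called higher, where 38.0% were. The untreated libraries at 72 enter the rule in the sense that favours a lower value at 72. Without time-0 library 3 the counts were 46 lower and 35 higher, beside 5456 and 6018 of 15727 genes. The 47 culture-lowered members had a median culture difference of -1.53 log2 units, the 29 culture-raised members one of 1.30 and the 44 members not called one of 0.02. These 3 classes were formed from the same libraries and are used to order the members.

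The levels of the classes against time 0 are given as a description. The classes were formed by a move between time 0 and untreated 72, and the members by a rise of at least 1 log2 unit from untreated 72 to TGFb alone. A higher level than in untreated slices in all members, and a level of the culture-raised members over 1 log2 unit above time 0, are therefore fixed by the choice. The culture-lowered members had a median mean level of 2.97 log2 CPM at time 0, 1.62 in untreated slices at 72 and 3.06 with TGFb alone. With TGFb alone 34 of the 47 lay within 1 log2 unit of their time-0 mean, 11 lay 1 or more below it and 2 lay 1 or more above it. Without time-0 library 3 these counts were 31, 12 and 4. The culture-raised members had a median mean level of 1.39 log2 CPM at time 0, 3.12 in untreated slices at 72 and 4.29 with TGFb alone.

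**Figure D5:**
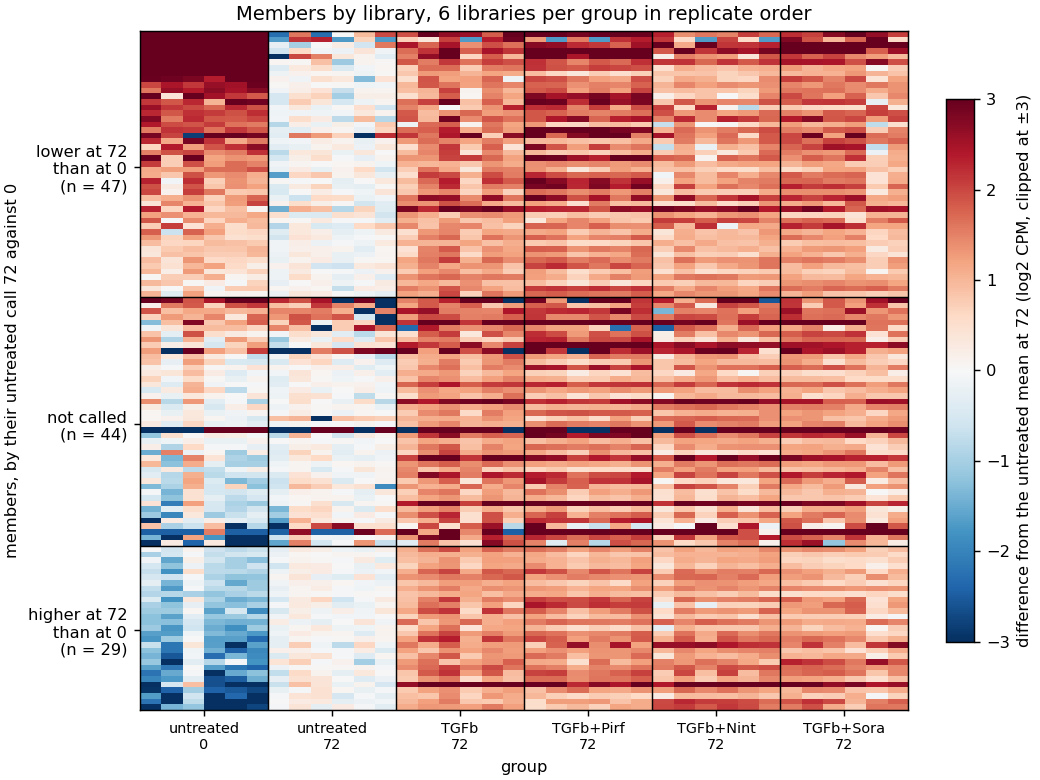
Log2 CPM of the 120 members (rows) in 36 libraries (columns, 6 per group) as the difference from each member's untreated mean at 72, clipped at 3 either way; rows are ordered by the untreated call between time 0 and 72. The 47 members that fell in culture are high at time 0 and the 29 that rose in culture are low there, and both classes are above 0 in most libraries with TGFb, with or without a drug.

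The Pirf and Sora differences helped to choose the members, so their values by class are a description, and a difference between the classes was not tested. With Pirf the median was 0.36 log2 units in the culture-lowered members, 0.05 in those not called and -0.02 in the culture-raised members. The members called higher with Pirf were 12 of 47, 8 of 44 and 2 of 29 in these classes, or 25.5%, 18.2% and 6.9%, beside 25.1% of all genes. With Sora the medians were -0.07, -0.16 and -0.35.

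The comparison of TGFb+Nint with time 0 uses no library that entered the 3 differences of the rule, other than through the minimum level. It combines culture, TGFb and Nint. Members that reached the minimum level only at time 0 were bound to have a lower group mean with TGFb+Nint. Of 120 members, 67 were higher with TGFb+Nint, where 39.1% of all genes were, and 23 were lower, where 38.6% were. In 50 members all Nint libraries lay above all time-0 libraries, which held for 31.3% of all genes, and in 13 they lay below, which held for 25.8%. Without time-0 library 3, 71 were called higher and 23 lower, beside 6156 and 6035 of 15727 genes. The groups then did not overlap in 58 members higher and 13 lower, beside 33.2% and 27.7% of all genes. With all libraries, the higher members were all 29 of the culture-raised class, 31 of the 44 not called for culture and 7 of the 47 culture-lowered. All 23 lower members were culture-lowered. The classes were formed with the same time-0 libraries, which favours this split, so it is a description. The median difference over the 120 was 0.99 log2 units, and 1.14 without that library. The overlap and the median without it were computed after the data had been seen.

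ENSRNOG00000015279 and ENSRNOG00000050024 had the largest fold changes of the fit with TGFb+Nint against time 0. ENSRNOG00000015279 ran from -3.25 to 2.56 at time 0 (median 0.72), from 3.41 to 4.11 in untreated slices at 72 (median 3.70), from 4.84 to 5.28 with TGFb alone (median 4.98) and from 5.25 to 5.85 with TGFb+Nint (median 5.72). Its groups thus formed steps, and the first 3 did not overlap. The log2 fold change of TGFb+Nint against time 0 was 4.34 ± 0.37 (SE; edgeR adjusted p = 1.84e-12) and 4.81 without time-0 library 3. It kept 4.25 to 4.91 with TGFb+Pirf (median 4.60) and 4.45 to 5.66 with TGFb+Sora (median 5.29). ENSRNOG00000050024 was higher with TGFb+Nint than at time 0 at an adjusted p of 0.000232 (0.00072 without time-0 library 3), and its sums of 185 and 3 counts set the precision of that difference.

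ENSRNOG00000005345 and ENSRNOG00000001943 had the lowest fold changes of the fit with TGFb+Nint against time 0. Both reached the minimum level of 1 log2 CPM only through their time-0 mean. A lower mean at 72 than at time 0 was therefore fixed by their choice, and their values are a description. ENSRNOG00000005345 ran from 2.29 to 3.38 at time 0 (median 2.91) and from -6.60 to -2.36 in untreated slices at 72 (median -3.87). With TGFb alone it ran from -2.53 to -1.31 (median -1.72), with TGFb+Pirf from -1.48 to -0.41 (median -0.80), with TGFb+Nint from -2.95 to -2.01 (median -2.69) and with TGFb+Sora from -2.28 to -0.34 (median -1.91). The fold change of TGFb+Nint against time 0 was -5.54 ± 0.37 log2 units (SE) and -5.48 without time-0 library 3. No library at 72 came near the time-0 range, with or without TGFb. ENSRNOG00000001943 fell by 5.29 ± 0.61 log2 units (SE, and -5.40 without time-0 library 3). Its summed counts went from 283 over the 6 time-0 libraries to 9 over the 6 Nint libraries. It had 8 counts in untreated slices at 72 and 14 with TGFb alone, so its TGFb difference rests on these few counts.

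The drug groups were also compared with each other. TGFb+Nint was lower than TGFb+Pirf in 35 members, where 28.2% of all genes were called, and higher in 8, where 26.5% were. Without scaling factors these counts were 47 and 5, beside 6258 and 2660 of all 15644 genes. TGFb+Nint was lower than TGFb+Sora in 4 members, where 6.43% of all genes were called, and higher in 5, where 4.56% were. Without scaling factors these were 9 and 1, beside 2148 and 432 of all 15644 genes. TGFb+Sora was lower than TGFb+Pirf in 34 members, where 20.3% of all genes were called, and higher in 9, where 21.8% were. The Pirf and Sora libraries enter the rule, in the sense that favours higher values with Pirf or Sora than with Nint, and the comparison of Sora with Pirf is a description. ENSRNOG00000058003 was named for its large Pirf difference, which favours a lower level with Nint or Sora than with Pirf. As a description, its log2 fold changes were -2.02 ± 0.36 (SE) between Nint and Pirf and -1.17 ± 0.35 between Sora and Pirf.

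The members did not all follow one course. The correlation of each member's 36 log2 CPM values with the members' median profile had a median of 0.79; it was at least 0.8 in 58 members and below 0.5 in 32. Over the 30 libraries at 72 alone the median was 0.85, with 76 members at 0.8 or more and 12 below 0.5. All members are part of the profile and were chosen for a shared difference, so this describes their spread only. The members closest to the profile were ENSRNOG00000055962 and ENSRNOG00000011758, with correlations of 0.97 each. ENSRNOG00000055962 had group means of 5.36 log2 CPM at time 0, 5.22 in untreated slices at 72, 7.27 with TGFb alone, 7.36 with TGFb+Pirf, 7.24 with TGFb+Nint and 6.86 with TGFb+Sora. ENSRNOG00000011758 had group means of 2.06, 2.14, 3.48, 3.77, 3.34 and 3.11 log2 CPM in the same order.

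Members varied more between libraries of a group than most genes did. Their median SD was 0.585 log2 units at time 0, 0.370 in untreated slices at 72, 0.385 with TGFb alone, 0.255 with TGFb+Pirf, 0.313 with TGFb+Nint and 0.371 with TGFb+Sora. Over all genes the medians were 0.243, 0.175, 0.189, 0.130, 0.140 and 0.195 in the same order. The median of the highest group mean was 3.82 log2 CPM in the members and 4.69 over all genes. Spread was not compared with that of genes of like level or of the other TGFb-raised sets. Single libraries often stood at the end of the range: library 3 with TGFb alone was the highest of its group for 66 of 120 members, and Pirf library 3, Nint library 1 and Sora library 5 were the lowest of theirs for 66, 65 and 68. What these libraries have in common beyond the members was not tested.

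Membership near the thresholds was a matter of small differences. The smallest TGFb difference inside was 1.004 and the largest outside 0.996, with 30 members and 32 other genes within 0.1 of the threshold. For Pirf the nearest values were -0.488 inside and -0.530 outside, for Sora -0.491 and -0.507, and for the highest mean 1.01 and 0.950. Leaving out 1 of the 24 libraries of the rule at a time gave 108 to 130 members, and 63 of the 120 were members every time.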

How the data were processed

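RNA of 36 libraries was analysed. Per the labels' protocols, stranded libraries were made from total RNA after depletion of ribosomal transcripts. Per the submitters' processing notes, RSEM, edgeR and the build Rnor_6.0 were used. Neither aligner nor annotation nor strandedness of counting is given in the sources used here. The authors deposited RSEM expected counts for 32883 Ensembl IDs, with no scaling. They also deposited log2 CPM values for 14984 genes, which equal edgeR's log2 CPM (TMM factors, prior count 0.25) with differences of at most 5e-14. RSEM can split reads among near-identical genes: 12.3% of the members' values were not whole, against 8.59% of all.

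The rule was applied to the deposited log2 CPM table. Calls came from the expected counts, rounded: filterByExpr kept 15644 genes, among them all 120 members, and edgeR 4.0.16 (R 4.3.3; TMM, glmQLFit, glmQLFTest) fitted the 36 libraries together with a mean per group. P-values were adjusted over these genes with the threshold 0.05. The fit was tested on simulated data. SE was taken as the absolute log2 fold change over √F. Alternatives were other scaling, no filter, a replicate block, fits of 2 groups, DESeq2 1.42.0, limma 3.58.1 and leaving out each library.

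No clear pairing of the libraries by replicate number was seen, as given with the alternatives. Members and lists were chosen with earlier results of these data known. IDs were named by rule among the 119 members with a mean normalized count of at least 50 in their highest group: the largest TGFb, Pirf, Sora and Nint differences, those against time 0, the highest levels and the closest to the median profile. At most 2 IDs per direction and comparison are given, fewer than the rule allows, because no ID could be paired with a name. For the same reason gene lists, cell type markers, promoters and proteins were not used.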

Additional observations from a re-analysis of the deposited data

Results flagged for a closer look

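In 102 groups of 6 values, 7 held a library far from the other 5 (the gap to the nearest, as a share of the range, exceeded Dixon's critical value), where chance gives about 1 in 20. The groups covered library measures and the members named above, other than those closest to the median profile. In time-0 library 3 the members held 0.475% of counts, against at most 0.31% in the others. The same library was the highest for ENSRNOG00000014288, at 9.85 log2 CPM with the next at 8.22, and for ENSRNOG00000005700, at 2.89 with the next at 2.16. ENSRNOG00000050024 was at -2.63 in time-0 library 4 and at -6.60, a count of 0, in the other 5. ENSRNOG00000023148 was at -6.60 in untreated library 6 at 72, with the next lowest at -2.96. In Sora library 4, ENSRNOG00000005345 was the highest at -0.34, with the next at -1.62, and ENSRNOG00000014021 was the lowest at 3.06, with the next at 4.07.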

How the results depend on the processing

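The counts of members called for Nint against time 0, Nint against untreated 72, untreated 72 against time 0 and Sora against Pirf stayed within 1.5 times under all alternatives run. The small counts moved. For Nint against TGFb alone, 1 member was higher by default, 2 with RLE size factors, 2 with a replicate block, 6 with those groups fitted alone and 3 with DESeq2. Of all genes, in the same order, 138, 164 and 148 of 15644, 298 of 14593 and 257 of 15034 were higher. In that comparison 1 member was lower by default, 0 without scaling factors, 0 without the filter, 0 with the replicate block, 0 with limma and 3 with DESeq2. Of all genes, in the same order, 345 and 245 of 15644, 212 of 25314, 339 of 15644, 281 of 14984 and 428 of 15034 were lower. Leaving out 1 library gave 1 to 2 higher (2 without TGFb library 3 or Nint library 6) and 0 to 3 lower (0 without TGFb library 2, 3 or 5 or Nint library 1, 4 or 5; 3 without TGFb library 1 or Nint library 6). Over all genes, leaving out 1 library gave 78 to 170 higher and 173 to 402 lower, of 15752 to 15777 genes. For Nint against Pirf, 5 members were higher without scaling factors, beside 2660 of 15644 genes, and 15 with the groups fitted alone, beside 4701 of 14831. For Nint against Sora, 1 member was higher and 9 lower without scaling factors, beside 432 and 2148 of 15644 genes. With the groups fitted alone 12 members were higher and 7 lower, beside 784 and 877 of 14759 genes. Leaving out 1 library gave 2 to 5 higher (2 without Nint library 5) and 2 to 7 lower (7 without Sora library 5; 2 without Nint library 4 or 5 or Sora library 1, 3 or 4). Over all genes, leaving out 1 library gave 348 to 1349 higher and 570 to 1470 lower for Nint against Sora, of 15749 to 15777 genes. Without scaling factors the median of all genes moved to -0.16 for Nint against Pirf and -0.12 against Sora. The calls over all genes then moved from 3926 higher and 4135 lower to 5973 and 2594 for Pirf, from 1096 and 1310 to 2173 and 684 for Sora, and from 1969 and 2168 to 1240 and 2754 for Nint against untreated 72. The rule gave 30 members with both drug differences above 0 and 58 above -0.25, by construction. It gave 117 with group medians (88 shared with the 120), 114 with a prior count of 2 (110 shared) and 130 without scaling factors (99 shared). Leaving out 1 library gave 108 to 130.

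ENSRNOG00000005700 lost its call against TGFb alone without scaling factors, without the filter, with the replicate block, with those groups fitted alone and with limma (log2 fold change -0.72 to -0.69). ENSRNOG00000007256 was called with the groups fitted alone and with DESeq2. ENSRNOG00000001943 had 0.05 for Nint against untreated 72 and changed sign without scaling factors (-0.0198) and in 6 of 12 fits without a library (-0.40 to 0.67). The cause of these changes was not tested. Same-numbered libraries of different groups correlated between -0.31 and 0.56 in their deviations. No pair of groups had more than 2 of 6 above 0.1, so no clear pairing by number was seen. A partial pairing is not excluded by these values. A count of 0 occurred in 11 members in at least 1 untreated or TGFb-alone library at 72, and log2 CPM differences of these rest on the prior count.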
